A study of Mus musculus with 4 samples.

Results

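Beside its core loop, the circadian clock drives a layer of transcription factors that carry its rhythm to other genes, and the RNAs of 9 of them were examined in mouse pancreatic islets at low and high glucose. They are the nuclear receptors Nr1d1, Nr1d2 and Rora, the PAR-bZIP activators Dbp, Tef and Hlf, the D-box repressor Nfil3, and the DEC repressors Bhlhe40 and Bhlhe41. The members were taken by gene name from the table of read counts, where they are 9 of 56748 genes, and all 9 passed the filter on low counts. Islets, the hormone-cell clusters of the pancreas, came from male C57BL/6J mice aged 6 to 8 weeks. All of them were held without glucose for several hours and then given either 2.5 mM glucose, which does not stimulate insulin release, or 25 mM, which stimulates it strongly, for 2 h. Every library of either group also received cycloheximide, which stops translation, at 100 μg/mL for the final 15 minutes, so the 2.5 mM islets are not an untreated baseline. In the study's islet preparation each mouse gave islets to both glucose levels and islets of several mice were pooled. The RNA libraries are described only as made under the same culture conditions, so whether they share mice is not stated. Each level has 2 poly(A)-selected libraries, which the labels call biological repeats. The sources used here do not give the time of day at which the islets were collected.

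In the core loop, the activators CLOCK and BMAL1 (gene Arntl) bind E-boxes and drive Per, Cry and several of the genes described here. REV-ERBα (Nr1d1) and REV-ERBβ (Nr1d2) then repress, and RORα (Rora) activates, genes with ROR response elements, among them Arntl itself. DBP, TEF and HLF activate genes through the D-box while NFIL3 represses the same element, and DEC1 (Bhlhe40) and DEC2 (Bhlhe41) compete at E-boxes. Islets hold such a clock, and its loss in beta cells is known to impair insulin secretion in mice.

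Total counts ran from 17279505 to 19136068 per library. High-glucose replicate 2 stood apart: its log2 CPM correlated with the other libraries at 0.948 to 0.967, against 0.975 to 0.985 among the others. CPM values are read counts scaled to library size with TMM factors. The islet label was borne out by its hormones, since the summed CPM of 8 beta cell markers ran from 80840 to 199200, highest in high-glucose replicate 2, and that of 5 alpha cell markers from 24880 to 40610. Markers of delta and PP cells summed to 1419 to 2499 and 3026 to 6460 CPM. Those of the 7 lists for other cells summed to 3.44 to 617 CPM, and of all 11 lists only Cd3e, a T cell marker, was at 0 in all libraries. Summed levels of 8 of the 11 lists separated fully by replicate number, and that of 1 list, delta cell markers, by glucose level. Beta, alpha, PP, macrophage and endothelial markers were higher in both replicate 2 libraries, and mesenchymal, duct and Schwann cell markers in both replicate 1 libraries. Acinar markers summed to 617 CPM in high-glucose replicate 1 against 237 to 293 in the others. In edgeR with the replicate number as a block, 2 of the 8 beta cell markers were higher at 25 mM. The share called higher over all tested genes was 1.85%. Ins1 had a log2 fold change of 0.51 (adjusted p = 0.0293) and Ins2 of 0.47 (adjusted p = 0.0259). Both rises stood mostly in replicate 2. The log2 ratio was 0.12 in replicate 1 and 0.89 in replicate 2 for Ins1, and 0.05 and 0.88 for Ins2. Without the block, edgeR passed neither (adjusted p = 0.558 and 0.594). Mesenchymal markers were at 433 and 405 CPM in the replicate 1 libraries against 80.5 and 105 in replicate 2, duct markers at 455 and 394 against 126 and 218, and endothelial markers at 64.6 and 73.6 against 248 and 218. In bulk RNA, fewer cells of a type and less RNA per cell cannot be told apart.

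The REV-ERB and ROR transcripts, Dbp, Hlf and Bhlhe41 were lower at 25 mM glucose in edgeR with the replicate number as a block. Their levels in that fit were 2.05- to 2.89-fold lower, while Tef, Nfil3 and Bhlhe40 passed no test. With the replicate number as a block in edgeR's quasi-likelihood fit, 6 of the 9 were lower at an adjusted p under 0.05, beside 5.01% of the 15665 genes tested, and 0 were higher, beside 1.85%. The median log2 fold change of the 9 was -1.14 in that fit, against -0.01 over all tested genes. The 9 were chosen with earlier results of these data known, so these comparisons describe them and do not test enrichment. Without the block, edgeR passed 0 of the 9 and 0% of all genes, although the same 6 members had an unadjusted p under 0.05, as did 1045 lower and 598 higher genes in all. DESeq2 without a block passed the same 6, beside 1.14% of 11390 genes with an adjusted p, and limma-voom without a block passed 0. By the study's own thresholds (unadjusted p under 0.05 and a change of over 1.5-fold, applied to the edgeR fit without a block) the count was again 6, beside 6.33% of genes.

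Both high-glucose libraries lay below both low-glucose libraries for 8 of the 9, all but Bhlhe40, beside 25.9% of all tested genes. The blocked fit reads libraries with the same number as pairs, which is an inference that no source states for the RNA libraries, and its spread comes from the trend over all genes, so members whose pairs differ widely can pass. Without high-glucose replicate 1, the fit without a block also passed the same 6, but beside 12.4% of the 16290 genes tested there, the lone high-glucose library being assumed to vary like the others. Leaving out any other library, it passed 0.

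**Figure D1:**
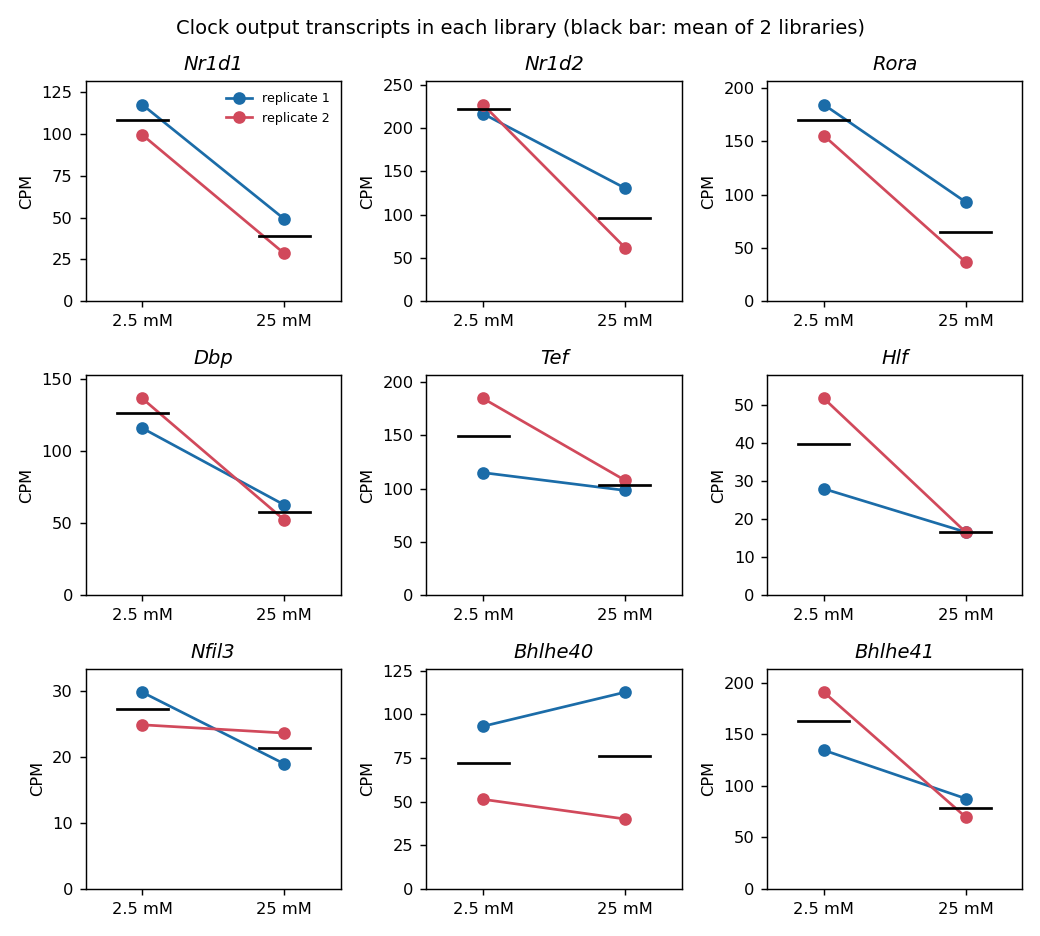
Level of each transcript (CPM, vertical axis from 0) at 2.5 and 25 mM glucose, with lines joining libraries of the same replicate number and black bars at the mean of 2 libraries. Nr1d1 goes from 117 and 99.5 CPM to 49.2 and 28.7, whereas the libraries of Bhlhe40 separate by replicate number.

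Windows around the gene starts are printed for members whose letters hold a clock-related motif, because these elements are the known routes by which clock factors and cAMP reach such genes. RefSeq (GRCm38.p6) gave 9 windows of 300 bases, 250 before and 50 after the start, for 8 of the 9 members, all but Bhlhe40. Capitals mark the motif, searched on both strands, and 5 of the 8 members held a match.
Nr1d1 (chr11:98775328-98775627, minus strand): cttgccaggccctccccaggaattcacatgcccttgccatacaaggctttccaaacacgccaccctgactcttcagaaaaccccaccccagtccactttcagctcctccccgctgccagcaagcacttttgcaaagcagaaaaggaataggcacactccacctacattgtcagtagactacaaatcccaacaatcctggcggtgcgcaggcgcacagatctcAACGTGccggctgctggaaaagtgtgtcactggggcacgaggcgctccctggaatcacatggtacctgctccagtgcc
Hlf (chr11:90390868-90391167, minus strand): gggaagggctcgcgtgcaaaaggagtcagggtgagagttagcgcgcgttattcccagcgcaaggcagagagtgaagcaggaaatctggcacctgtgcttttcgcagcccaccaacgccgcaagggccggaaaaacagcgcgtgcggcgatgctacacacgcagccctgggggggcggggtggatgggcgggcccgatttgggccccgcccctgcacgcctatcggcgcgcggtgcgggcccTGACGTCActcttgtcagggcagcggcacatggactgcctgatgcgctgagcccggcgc
Bhlhe41 (chr6:145865371-145865670, minus strand): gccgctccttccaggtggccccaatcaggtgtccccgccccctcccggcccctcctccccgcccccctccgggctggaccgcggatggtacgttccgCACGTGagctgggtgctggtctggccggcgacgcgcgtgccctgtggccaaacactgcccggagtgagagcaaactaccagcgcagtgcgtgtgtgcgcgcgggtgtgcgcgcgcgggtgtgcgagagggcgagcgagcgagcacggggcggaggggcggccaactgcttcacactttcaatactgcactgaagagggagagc
Tef (chr15:81811164-81811463, plus strand): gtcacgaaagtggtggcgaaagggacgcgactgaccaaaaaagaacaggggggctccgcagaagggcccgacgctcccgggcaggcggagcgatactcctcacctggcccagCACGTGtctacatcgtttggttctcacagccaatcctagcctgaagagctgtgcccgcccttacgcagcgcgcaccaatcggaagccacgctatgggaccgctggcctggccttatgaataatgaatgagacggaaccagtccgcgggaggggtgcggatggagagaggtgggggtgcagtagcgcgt
Nfil3 (chr13:52980990-52981289, minus strand): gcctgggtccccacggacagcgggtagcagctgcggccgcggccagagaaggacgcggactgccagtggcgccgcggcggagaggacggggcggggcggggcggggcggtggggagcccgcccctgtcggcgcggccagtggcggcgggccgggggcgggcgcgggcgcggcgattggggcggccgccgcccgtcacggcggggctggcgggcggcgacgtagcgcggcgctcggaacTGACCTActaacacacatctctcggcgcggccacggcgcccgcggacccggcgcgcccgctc
The window of Nr1d1 holds the E-box variant CACGTT, read here as AACGTG, 28 bases before the start. That of Hlf holds the cAMP response element TGACGTCA 9 bases before the start. The canonical E-box CACGTG stands 153 bases before the start of Bhlhe41 and 138 before that of Tef, whose other window holds it as well, at 127 bases. The ROR element core TAGGTCA, read as TGACCTA, stands 12 bases before the start of Nfil3. CACGTG was in 3 of the 9 member windows and in 7.15% of 32851 windows of this length over all genes. The shares over all genes were 4.68% for CACGTT, 2.61% for TAGGTCA and 1.79% for TGACGTCA. The D-box, searched as TTATGTAA and TTACGTAA, was in 0 of the 9 windows and in 0.938% and 0.119% of all. The windows of Nr1d2, Rora and Dbp held none of these letters, and bases outside the windows were not searched. An E-box thus stood in the windows of Bhlhe41, which passed the blocked test, and of Tef, which did not.

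Nr1d1 (ENSMUSG00000020889, chromosome 11, 98658758 to 98666159, minus strand, as the table gives positions) encodes REV-ERBα, the dominant repressor of Arntl. Its counts were 2104 and 1851 in low-glucose replicates 1 and 2, and 975 and 508 in the high-glucose libraries in the same order. That is 117 and 99.5 CPM at 2.5 mM against 49.2 and 28.7 at 25 mM. The groups did not overlap, and the high-glucose libraries differed from each other more than the low-glucose ones in relative terms. Mean levels were 108 ± 12.7 and 39.0 ± 14.5 CPM (SD, n = 2 each). The log2 ratio of high to low was -1.25 in replicate 1 and -1.79 in replicate 2. In the blocked edgeR fit the log2 fold change was -1.52 (SE 0.287, adjusted p = 2.42e-05), a 2.87-fold lower level, and without the block it was -1.48 (SE 0.299, adjusted p = 0.4). DESeq2 without a block gave an adjusted p of 0.00101.

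The 3′ end of Nr1d1 overlaps Thra, the gene of thyroid hormone receptor α, which lies on the opposite strand. By the exons of GENCODE vM21, whose exonic length for all 9 members equals that of the table, 8.55% of the exonic bases of Nr1d1 also lie in Thra exons. Whether counting used strand is not given in the sources used here, so reads in the shared stretch cannot be assigned with certainty. Thra was at 50.04 and 59.3 CPM at 2.5 mM and at 40.1 and 49.5 at 25 mM. Its groups did not overlap, but high-glucose replicate 2 lay just under low-glucose replicate 1. In the blocked edgeR fit Thra had a log2 fold change of -0.29 (SE 0.278, adjusted p = 0.626).

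Nr1d2 (ENSMUSG00000021775, chromosome 14, 4230569 to 4265642, plus strand in the table) encodes REV-ERBβ, a paralog that represses the same elements. It had 3874 and 4220 counts in the low-glucose libraries and 2586 and 1099 in the high-glucose libraries. In CPM these were 216 and 227 against 131 and 62.0. The low-glucose libraries lay close together, while high-glucose replicate 2 was well below high-glucose replicate 1. The means were 222 ± 7.40 and 96.3 ± 48.5 CPM (SD, n = 2 each), and the ratio was -0.73 in replicate 1 and -1.87 in replicate 2 on the log2 scale. The blocked log2 fold change in edgeR was -1.30 (SE 0.282, adjusted p = 0.000396), a 2.46-fold lower level, against -1.20 (SE 0.349, adjusted p = 0.431) without the block. Leaving out high-glucose replicate 1 took the value without the block to -1.83, a shift of over 1.5-fold, and leaving out high-glucose replicate 2 took it to -0.75 (adjusted p = 0.362).

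Rora (ENSMUSG00000032238, chromosome 9, 68561068 to 69295528, plus strand in the table) encodes RORα, the activator that opposes the REV-ERBs. It is the longest member, with 13071 exonic bases. It had 3304 and 2891 counts in the low-glucose libraries and 1843 and 649 in the high-glucose libraries, or 184 and 155 CPM against 93.1 and 36.6. Activator and repressor transcripts were thus both lower at 25 mM, and in both replicates. The mean of Rora was 170 ± 20.6 CPM at 2.5 mM and 64.9 ± 39.9 at 25 mM (SD, n = 2 each), with log2 ratios of -0.99 in replicate 1 and -2.09 in replicate 2. The blocked edgeR fit gave -1.53 (SE 0.289, adjusted p = 2.42e-05), a 2.89-fold lower level. Without the block it gave -1.39 (SE 0.414, adjusted p = 0.431), with -2.21 when high-glucose replicate 1 was left out and -0.86 (adjusted p = 0.332) when high-glucose replicate 2 was. With the trend of log2 ratio on gene length removed in the blocked fit, Rora was at -1.05 (adjusted p = 9.88e-06), and Nr1d1 at -1.60.

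**Figure D2:**
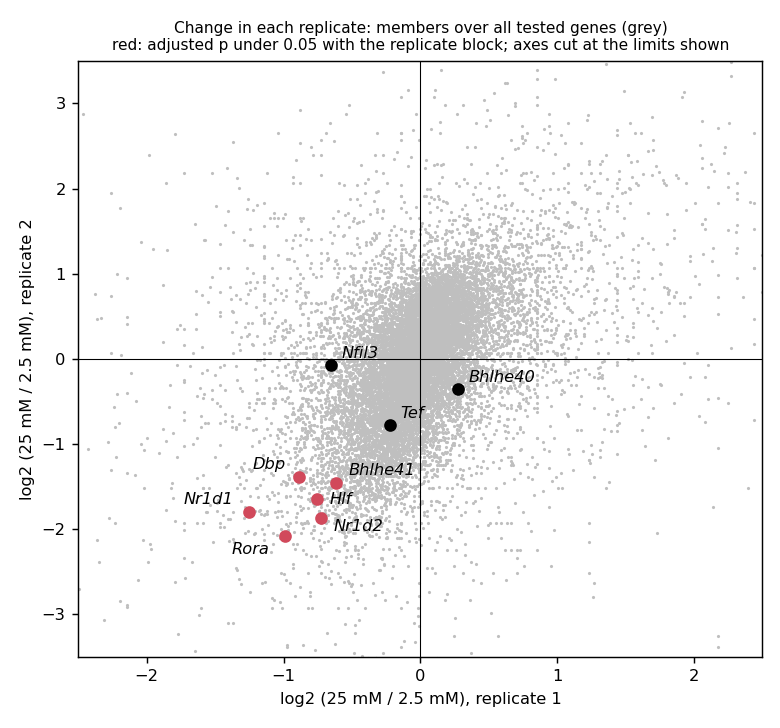
Log2 ratio of 25 mM over 2.5 mM in replicate 1 (horizontal) and in replicate 2 (vertical) for tested genes above 0 in every library (grey) and the 9 members. Red members had an adjusted p under 0.05 in the blocked edgeR fit, and all 6 lie below 0 on both axes, from -0.62 to -1.25 in replicate 1 and from -1.38 to -2.09 in replicate 2.

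Among the PAR-bZIP activators, whose proteins share a proline- and acid-rich domain, Dbp was the most abundant per length. Dbp (ENSMUSG00000059824, chromosome 7, 45354512 to 45359627, plus strand in the table) is a direct CLOCK and BMAL1 target of large rhythm in liver. It had 2074 and 2538 counts in the low-glucose libraries and 1240 and 926 in the high-glucose libraries. In CPM it was at 116 and 136 against 62.6 and 52.3. The groups did not overlap and the gap between them exceeded the spread within either. The means were 126 ± 14.6 and 57.4 ± 7.34 CPM (SD, n = 2 each), and the log2 ratios were -0.89 in replicate 1 and -1.38 in replicate 2. The edgeR log2 fold change was -1.14 with the block (SE 0.284, adjusted p = 0.00315), a 2.2-fold lower level, and -1.13 without it (SE 0.221, adjusted p = 0.4). Dbp overlaps Sphk2, a sphingosine kinase gene on the opposite strand, over 18% of its exonic bases. Sphk2 was at 85.2 and 85.1 CPM at 2.5 mM and 71.9 and 79.9 at 25 mM, with a blocked log2 fold change of -0.17 (adjusted p = 0.808, edgeR).

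Hlf (ENSMUSG00000003949, chromosome 11, 90227362 to 90281721, minus strand in the table) was the least abundant of the 9 per length. It drew 502 and 965 reads in the low-glucose and 329 and 294 in the high-glucose libraries. The levels were 28.0 and 51.9 CPM in the low-glucose libraries and 16.6 in either high-glucose library. The spread lay between the low-glucose libraries, and both exceeded the high-glucose level. Means were 40.0 ± 16.8 and 16.6 ± 0.0184 CPM (SD, n = 2 each), with log2 ratios of -0.75 in replicate 1 and -1.64 in replicate 2. The blocked edgeR fit gave -1.20 (SE 0.284, adjusted p = 0.00151), a 2.30-fold lower level, and the fit without the block -1.27 (SE 0.325, adjusted p = 0.425).

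Tef (ENSMUSG00000022389, chromosome 15, 81686622 to 81711064, plus strand in the table) did not pass any of the 15 fits. It had 2059 and 3436 counts at 2.5 mM and 1947 and 1912 at 25 mM, that is 115 and 185 CPM against 98.3 and 108. High-glucose levels lay just under low-glucose replicate 1, and low-glucose replicate 2 stood above the rest. The means were 150 ± 49.3 and 103 ± 6.76 CPM (SD, n = 2 each), and the blocked log2 fold change was -0.50 (SE 0.279, adjusted p = 0.327, edgeR).

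Nfil3 (ENSMUSG00000056749, chromosome 13, 53121245 to 53135109, minus strand in the table) encodes E4BP4, the repressor that binds the D-box in competition with the PAR-bZIP factors. Counts were 533 and 462 in the low-glucose libraries and 375 and 418 in the high-glucose libraries. At 29.8 and 24.8 CPM against 18.9 and 23.6, the groups were adjacent but did not overlap. The log2 ratio was -0.65 in replicate 1 and -0.07 in replicate 2, so the larger change stood in replicate 1, whereas in the other members below 0 it stood in replicate 2. The means were 27.3 ± 3.49 and 21.3 ± 3.29 CPM (SD, n = 2 each), and the blocked edgeR log2 fold change was -0.36 (SE 0.279, adjusted p = 0.518).

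The DEC genes, which encode basic helix-loop-helix repressors, differed from each other. Bhlhe41 (ENSMUSG00000030256, chromosome 6, 145803969 to 145811284, minus strand in the table), the gene of DEC2, had 2412 and 3553 counts at 2.5 mM and 1737 and 1236 at 25 mM. Its levels were 135 and 191 CPM against 87.7 and 69.8, without overlap. The order of the replicates turned, with replicate 2 higher at 2.5 mM and lower at 25 mM. Means were 163 ± 39.8 and 78.7 ± 12.7 CPM (SD, n = 2 each), with log2 ratios of -0.62 in replicate 1 and -1.45 in replicate 2. The blocked log2 fold change in edgeR was -1.03 (SE 0.283, adjusted p = 0.00854), a 2.05-fold lower level, against -1.05 (SE 0.257, adjusted p = 0.425) without the block. An unnamed antisense transcript model, Gm43909, covers 19% of its exonic bases and had 14 to 37 counts.

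Bhlhe40 (ENSMUSG00000030103, chromosome 6, 108637590 to 108643886, plus strand in the table), the gene of DEC1, had 1669 and 955 counts in the low-glucose libraries and 2231 and 710 in the high-glucose libraries. In CPM these were 93.2 and 51.3 against 113 and 40.1. Both replicate 1 libraries were above both replicate 2 libraries, at either glucose level, and the glucose groups overlapped fully. The log2 ratio was 0.27 in replicate 1 and -0.36 in replicate 2. The means were 72.3 ± 29.6 and 76.4 ± 51.4 CPM (SD, n = 2 each), and the log2 fold change was 0.08 without the block (SE 0.491, adjusted p = 0.963) and -0.04 with it (SE 0.281, adjusted p = 0.964, edgeR). The mesenchymal, duct and Schwann cell markers were also higher in the replicate 1 libraries, and their part in the level of Bhlhe40 was not tested.

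**Figure D3:**
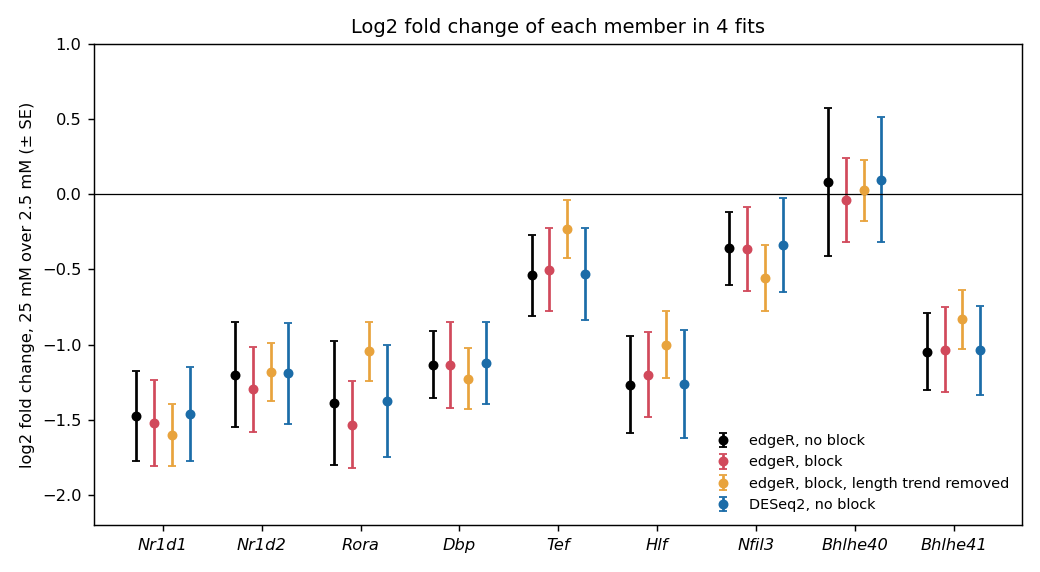
Log2 fold change of 25 mM over 2.5 mM for each member in 4 fits, with bars of 1 SE. Nr1d1, Nr1d2, Rora, Dbp, Hlf and Bhlhe41 lie between -0.83 and -1.60 in each of the 4 fits, and the bars of Bhlhe40 span 0 in all of them.

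Across fits, the 6 members each passed in 7 of 15, in which the share of all tested genes called lower ran from 1.14% to 12.4%, and their log2 fold changes were below 0 in all 15. Nr1d1 ranged from -1.92 to -1.13 and Rora from -2.21 to -0.86. Nr1d2 ranged from -1.83 to -0.75, Dbp from -1.27 to -0.96, Hlf from -1.65 to -0.70 and Bhlhe41 from -1.28 to -0.72. Tef and Nfil3 were also below 0 in every fit, from -0.84 to -0.10 and from -0.56 to -0.21, but passed in none. Replicate 2 gave the lower ratio for 8 of the 9 members, all but Nfil3, and it contains high-glucose replicate 2, the library that stood apart and in which beta cell markers summed highest. The part of that library's makeup in the lower levels was not tested. On the opposite strand of other members lie 3 further transcript models with few reads: Gm17597 at Tef had 2 to 5 counts, 0610040F04Rik at Bhlhe40 had 5 to 19, and Gm15511 at Rora had 0.

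Per kilobase of exon, the most abundant members at 2.5 mM were Dbp at 42.1 ± 4.86 and Nr1d2 at 41.0 ± 1.37 CPM per kb (SD, n = 2), whose libraries overlapped. Nr1d1 followed at 35.3 ± 4.14, below both libraries of Nr1d2 and above both of Bhlhe41, at 24.2 ± 5.92. Bhlhe41, Tef, Bhlhe40, Nfil3 and Rora formed a descending series down to 13.0 ± 1.58 in which each overlapped the next, and Hlf stood below it at 5.98 ± 2.52 CPM per kb. Mean levels over the 4 libraries placed Dbp above 90.5% of tested genes and Hlf above 48.4%. At 25 mM the range narrowed at its top: from Dbp at 19.2 ± 2.45 through Nr1d2, Bhlhe40, Tef, Nr1d1 and Bhlhe41 to Nfil3 at 10.5 ± 1.62 CPM per kb, every neighbour overlapped. Rora at 4.96 ± 3.05 and Hlf at 2.49 ± 0.00275 stood below, each apart from the member above it. Nr1d1 went from the third place to the fifth, while Bhlhe40 went from the sixth to the third.

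Ratios of 2 members within a library do not move with depth, and 6 were computed. They were not corrected for the trend of log2 ratio on gene length, which can shift members of different exonic length apart. Each had an exact two-sided permutation test that cannot go below p = 0.333 with 2 against 2. The log2 ratio of the D-box activator Dbp to the repressor Nfil3, in reads per kb, was 1.397 and 1.89 at 2.5 mM and 1.16 and 0.58 at 25 mM. This ratio was thus lower in both high-glucose libraries, by -0.77 on average (exact p = 0.333). The other D-box activators, Tef and Hlf, were not set against Nfil3. Dbp over its paralog Tef went from 1.405 and 0.96 to 0.74 and 0.35, also without overlap (difference -0.64, exact p = 0.333). Dbp over Hlf was at 3.21 and 2.55 against 3.07 and 2.81, with overlap (difference 0.06, exact p = 1.0). With the length trend removed in edgeR without the block, Dbp had a log2 fold change of -1.22 and Hlf of -1.06. Neither ratio of the nuclear receptors separated the groups. Nr1d1 over Nr1d2 was at -0.07 and -0.38 against -0.59 and -0.30 (difference -0.23, exact p = 0.667). The repressor Nr1d1 over the activator Rora was at 1.44 in either low-glucose library and at 1.17 and 1.73 in the high-glucose libraries (difference 0.01, exact p = 1.0). Nr1d1 and Rora differ in exonic length, at 3077 and 13071 bases. With the length trend removed in the blocked edgeR fit, Nr1d1 had a log2 fold change of -1.60 and Rora of -1.05. The difference of 0.01 therefore does not show that the balance of these 2 transcripts was unchanged. The level of Bhlhe40 over Bhlhe41 differed by replicate number, at -0.02 and -1.38 against 0.88 and -0.29, so the groups overlapped (difference 0.99, exact p = 0.667). In each replicate this ratio was higher at 25 mM.

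**Figure D4:**
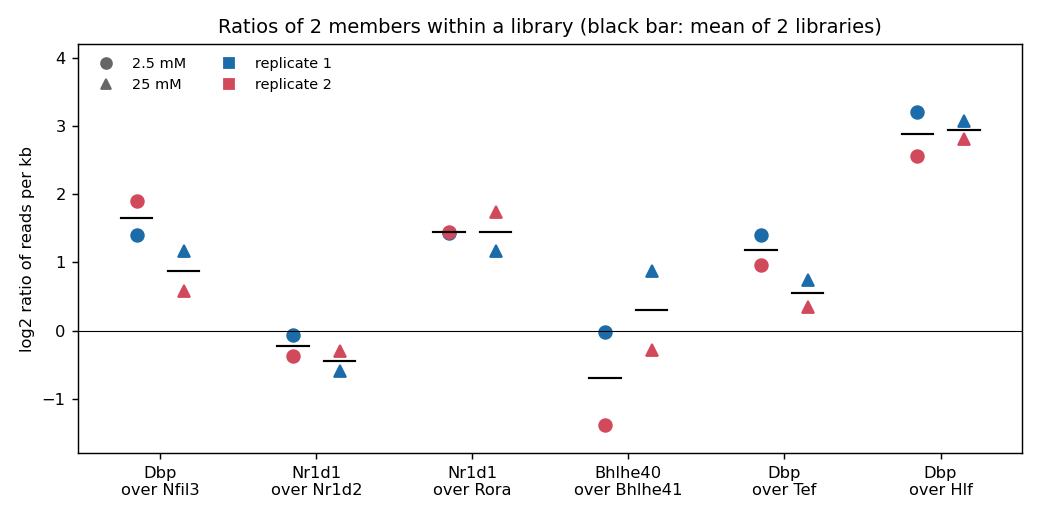
Log2 ratio of reads per kb between 2 members within each library, with circles for 2.5 mM, triangles for 25 mM, colour for the replicate and black bars for the mean of 2 libraries. Dbp over Nfil3 and Dbp over Tef are lower in both high-glucose libraries, at 1.16 and 0.58 and at 0.74 and 0.35, while the groups of the other 4 ratios overlap.

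The genes around these factors were read from lists of their partners and targets, and their counts in the blocked fit stand beside 5.01% of all tested genes lower and 1.85% higher. Of 13 core clock genes, 3 were lower in the blocked edgeR fit and 0 higher, with a median log2 fold change of -0.80: Ciart, a repressor of CLOCK and BMAL1, at -2.08 (adjusted p = 1.69e-08), Clock at -0.97 (adjusted p = 0.0141) and Cry2 at -0.88 (adjusted p = 0.0318). For Clock the log2 ratio was -0.32 in replicate 1 and -1.63 in replicate 2, and for Cry2 it was -0.84 and -0.93. Per1 stood at 0.00 (adjusted p = 0.999). Ciart had 16.0 and 21.0 CPM at 2.5 mM and 3.94 and 4.80 at 25 mM, without overlap.

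Of 7 tested genes repressed by the REV-ERBs and activated by RORα, 1 was lower, Clock, whose change stood mostly in replicate 2, and 0 were higher, with a median of -0.36. Arntl, the reference target, was at 9.27 and 13.7 CPM at 2.5 mM and at 8.03 and 4.63 at 25 mM. Its groups did not overlap, and its blocked log2 fold change was -0.87 (adjusted p = 0.0768, edgeR). Npas2, the CLOCK paralog, was at -0.80 (adjusted p = 0.154). Nfil3 is itself on this list. Elovl3, a fatty acid elongase gene regulated by REV-ERBα in liver, had 0 counts in all libraries and was not tested.

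Of 11 tested genes with a known D-box, 3 were lower and 0 higher, and those 3 are the members Nr1d1, Nr1d2 and Rora. Per2 at -0.81 (adjusted p = 0.0606) and Per3 at -0.80 (adjusted p = 0.0594) did not pass in the blocked edgeR fit, nor without the block (adjusted p = 0.451 and 0.431). The log2 ratio of Per2 was -0.29 in replicate 1 and -1.32 in replicate 2. Por, the cytochrome P450 reductase gene, stood at 0.37 (adjusted p = 0.463), and the heme synthesis gene Alas1 at -0.43 (adjusted p = 0.421).

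The corepressor complex through which the REV-ERBs act had 1 of 6 genes lower and 0 higher, Tbl1xr1 at -0.84 (adjusted p = 0.0413, edgeR with the block). Ncor1, the corepressor bound by REV-ERBα, stood at -0.70 (adjusted p = 0.0898), and the deacetylase gene Hdac3 at 0.21 (adjusted p = 0.745). Of 4 ubiquitin ligase genes reported to turn over REV-ERBα, 2 were lower and 0 higher, Huwe1 at -1.04 (adjusted p = 0.0054) and Mycbp2 at -0.86 (adjusted p = 0.0429). For both, the log2 ratio was small in replicate 1, at -0.28 and -0.11, and large in replicate 2, at -1.81 and -1.61. Siah2 stood at 0.17 (adjusted p = 0.805). Without the block, edgeR passed 0 genes of these lists. The list genes were not read with the length trend removed.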

How the data were processed

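RNA-seq of mouse islets, 2 libraries at 2.5 mM and 2 at 25 mM glucose, was examined. The deposited table holds raw counts per gene from featureCounts, with exonic lengths, made by the authors from fastp-trimmed reads after alignment by HISAT2 2.2.1. Strandedness and the handling of multiply mapped reads are not given in the sources used here. The labels name mm10, but 1448 of 52036 genes shared with GENCODE vM21, and 0 of the 9 members, had the same start in the table, so its positions are printed without a build. Promoter windows are of GRCm38.p6.

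Counts were tested over 15665 genes without a block by the two-sided quasi-likelihood test of edgeR 4.0.16 under R 4.3.3, with TMM factors, filterByExpr and Benjamini-Hochberg adjustment (threshold 0.05). The standard error is the size of the log2 fold change divided by the square root of F. Alternatives were DESeq2 1.42.0, limma-voom from limma 3.58.1 and a loess offset (span 0.5) for exonic length, and the edgeR, DESeq2 and limma-voom fits were repeated with the replicate number as a block. Deviations from the group mean were correlated between libraries of the same number (Pearson r = 0.409 across genes, which are not independent). The study's islet preparation split each mouse's islets between the levels, but no source states this of the RNA libraries or that their numbers are pairs, so both fits are given. The blocked fit has infinite prior degrees of freedom, and so has the edgeR fit with no filter on low counts, which has no block. The biological coefficient of variation of edgeR fell from 27.7% to 20.4% when the block was added. Ratios used no pseudocount, with 0.5 counts added as an alternative. The members and lists were chosen with earlier results of these data known. The text names all members, list genes that passed with the block and at most 4 others per list, genes that overlap a member, and the 5 nearest profiles to Nr1d1 and to Dbp. Some list genes are not reported here.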

Additional observations from a re-analysis of the deposited data

How the results depend on the processing

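The count of members lower at 25 mM, 0 in edgeR without a block, was 6 with DESeq2, with the replicate block, with DESeq2 or limma-voom and the block, with no filter on low counts, with the length trend removed and the block, and at the study's thresholds. It stayed at 0 with limma-voom, median-of-ratios factors, no composition factors or the length trend removed without the block. Without 1 library it ran from 0 to 6, the 6 being without high-glucose replicate 1. Like edgeR's blocked fits, the fit with no filter on low counts took its spread from the trend over all genes. The count of higher members was 0 in all alternatives. Over all genes tested, lower calls numbered 785 of 15665 (5.01%) with the replicate block, 130 of 11390 (1.14%) with DESeq2, 191 of 11865 (1.61%) with DESeq2 and the block, 720 (4.6%) with limma-voom and the block, 818 (5.22%) with the length trend removed and the block, 453 of 26119 (1.73%) with no filter and 2020 of 16290 (12.4%) without high-glucose replicate 1. Bhlhe40, at 0.08 without a block, took the other sign with limma-voom at -0.037, with the replicate block at -0.039, with DESeq2 and the block at -0.022 and with limma-voom and the block at -0.034, and ran from -0.85 to 0.66 without 1 library. No other member changed sign. Of the ratios, with libraries left out as a choice made after seeing the data, the difference of Nr1d1 over Rora (0.01) ran from -0.27 to 0.29 and that of Dbp over Hlf (0.06) from -0.26 to 0.39. The other 4 kept their sign but moved: Bhlhe40 over Bhlhe41 (0.99) from 0.31 to 1.68, Nr1d1 over Nr1d2 (-0.23) from -0.38 to -0.07, Dbp over Nfil3 (-0.77) from -1.06 to -0.48 and Dbp over Tef (-0.64) from -0.86 to -0.41. The cause of these shifts was not tested. With 2 libraries per group, permutation cannot pass the threshold.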

Other observations

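The genes whose profiles lay nearest to those of Nr1d1 and Dbp were found by Euclidean distance between log2 CPM values centred on each gene's mean over the 4 libraries, among 9593 genes with a mean of at least 10 CPM. The nearest to Nr1d1 were Slc20a1, a phosphate transporter gene (distance 0.112), Dusp16, a phosphatase of stress-activated kinases (0.134), Trp53inp1, a p53-induced gene (0.149), Spata13 (0.156) and Stard5, a sterol-binding protein gene (0.166). Slc20a1 was at 111 and 103 CPM at 2.5 mM and at 49.1 and 29.9 at 25 mM, close to the levels of Nr1d1 itself in each library. Nr1d2 stood at rank 34 (distance 0.376) and Rora at rank 49 (0.4), whereas Bhlhe40 stood at rank 4739.

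The nearest to Dbp were Zfp81 (0.0543), Lpin2, a phosphatidate phosphatase gene (0.0678), the Notch ligand gene Dll1 (0.112), the autophagy gene Atg14 (0.13) and Prpf39, a splicing factor gene (0.138). Lpin2 was at 49.3 and 59.3 CPM at 2.5 mM and at 28.2 and 22.2 at 25 mM. Bhlhe41 was the nearest member to Dbp, at rank 22 (0.22), ahead of Hlf at rank 412 and Tef at rank 1666. These distances rest on 4 libraries and describe likeness of the pattern across libraries, since the level of each gene is removed, and not shared control.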
